A study of Mus musculus with 15 samples.

Results

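The 10 genes described here are the NF-kB subunits *Nfkb1*, *Nfkb2*, *Rela* and *Relb*, the inhibitor genes *Nfkbia*, *Nfkbib*, *Nfkbie* and *Nfkbiz*, and the feedback targets *Tnfaip3* and *Birc3*. They were taken by gene symbol from a table of 35880 genes. RNA was sequenced from 5 lines of the mouse Lewis lung carcinoma line LL2/Luc2, each in 3 biologic replicates, 15 samples in all. LL2 WT is the parental line. *KEAP1* KO #1, #2 and #3 (KEAP KO in the labels) are 3 CRISPR clones grown from single cells after targeting of *Keap1*, whose protein normally holds the transcription factor NRF2 low. *NRF2* KO is 1 such clone made by targeting *Nfe2l2*, the gene of NRF2. All 5 lines shared the LL2/Luc2 background and the serum-containing DMEM medium, no stimulus was added, and each line is 1 clone or the parental pool, so that clone and genotype cannot be told apart in a single line. The replicates are called biologic triplicates with no further detail, and p-values measure the spread between these samples.

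NF-kB is a family of dimeric transcription factors that carries signals from TNF, interleukin-1 and Toll-like receptors to genes of inflammation and survival. In resting cells, inhibitor (IkB) proteins keep the dimers in the cytoplasm until the IkB kinase (IKK) complex marks the inhibitor for degradation. The dimers then switch on their own inhibitors, among them *Nfkbia* and *Tnfaip3*, and this negative feedback makes the mRNA of such genes a common readout of pathway activity. In lung cancer, NF-kB target genes include chemokines and adhesion molecules that affect immune cells.

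The 250 bases before the start site are shown for *Nfkbia*, the member with the largest called differences, and for *Nfkbie*, an inhibitor gene without one. They were taken from RefSeq on GRCm38.p6, at chr12:55492648-55492897 (minus strand) and chr17:45555450-45555699 (plus strand), and are written 5′ to 3′. Capitals mark matches to the consensus kB decamer, the binding motif of NF-kB dimers, and to TGACNNNGC, the core of the antioxidant response element bound by NRF2, on either strand.
Nfkbia: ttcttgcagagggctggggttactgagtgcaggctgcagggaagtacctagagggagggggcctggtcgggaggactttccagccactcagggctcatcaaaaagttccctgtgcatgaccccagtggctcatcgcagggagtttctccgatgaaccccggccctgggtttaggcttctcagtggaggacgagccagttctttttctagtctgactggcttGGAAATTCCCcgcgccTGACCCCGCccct
Nfkbie: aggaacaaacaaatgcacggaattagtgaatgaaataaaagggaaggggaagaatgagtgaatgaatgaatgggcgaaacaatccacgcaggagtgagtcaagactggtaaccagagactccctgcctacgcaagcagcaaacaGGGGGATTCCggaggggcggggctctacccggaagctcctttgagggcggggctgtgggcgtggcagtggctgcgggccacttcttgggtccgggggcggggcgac

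The *Nfkbia* window held 1 kB match, GGAAATTCCC, which begins 29 bases before the start site, and 1 antioxidant response element core, TGACCCCGC, which begins 13 bases before it. These matches do not overlap. The *Nfkbie* window held 1 kB match, GGGGGATTCC, 106 bases before the start site, and no core. Of the 10 genes, 7 had a promoter entry. *Nfkb1*, *Relb* and *Nfkbiz* had none. A kB match lay in the windows of 4 of these 7 genes (*Nfkb2*, *Nfkbia*, *Nfkbie* and *Tnfaip3*), against 3.90% of all 32841 promoter windows of the same length. The antioxidant response element core lay in 1 of the 7 (*Nfkbia*), against 10.16% of all windows. These counts are per gene and the shares per window, and *Nfkb2* had 3 windows and *Tnfaip3* 2, which gives them more chances of a match. A match describes the letters of the window only.

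Values are CPM, read counts that the authors scaled to a common library total (999412 to 999525 CPM per sample), and the depth of each sample cannot be read from them. CPM are not corrected for transcript length, so levels are compared between samples and not between genes. Tests were made with limma on log2(CPM + 0.1) over the 14652 genes with at least 3 CPM summed over the samples, and all 10 genes passed this filter. A gene passed the test at a Benjamini-Hochberg adjusted p under 0.05 over all genes tested, and is termed called when the absolute log2 fold change also exceeded 1. Errors are the SD of n = 3 samples unless a standard error (SE) is named. *Keap1* lay below every LL2 WT sample in all 9 *KEAP1* KO samples, *Nfe2l2* lay below them in all 12 knockout samples, and *Nqo1*, a canonical NRF2 target, spanned 253 to 545 CPM over the *KEAP1* KO clones, 26.1 to 36.5 CPM over LL2 WT and 8.55 to 10.96 CPM over *NRF2* KO.

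Marker genes of other cell types were read beside these results. Of the 7 lung epithelial markers, *Krt8* and *Krt18* made up most of the signal (the list summed to 299 to 667 CPM), while *Nkx2-1*, *Epcam* and *Cdh1* stayed under 0.1 CPM in every sample. The 8 fibroblast genes summed to 319 to 584 CPM in LL2 WT and 184 to 423 CPM in *NRF2* KO, mainly through *Col3a1*. The *KEAP1* KO samples summed to 3.42 to 30.9 CPM. *Col1a1*, *Col1a2*, *Pdgfra* and *Lum* also had lower means in every clone. *Pdgfrb* spanned 1.92 to 6.61 CPM over *KEAP1* KO #1, above its LL2 WT span of 0.614 to 0.822 CPM. For #2 and #3, *Pdgfrb* lay below that span. Means of *Thy1* were 0.797 CPM for the parental line and 0.932, 0.808 and 0.965 CPM for clones #1, #2 and #3. The mean of *Dcn* was lower in #1 and #2 but not in #3. The 7 leukocyte genes summed to 2.98 to 5.35 CPM in LL2 WT and 3.48 to 5.81 CPM in *NRF2* KO. In *KEAP1* KO #1, #2 and #3 they summed to 5.38 to 10.0, 8.94 to 22.8 and 14.1 to 36.9 CPM, mainly through *Cd68*. *Lyz2* of the same list went the other way, with 0.753 to 1.66 CPM in LL2 WT and 0 to 0.110 CPM in *KEAP1* KO #3. *Adgre1* was at 0 in all 15 samples. The 3 endothelial genes summed to 2.47 to 7.48 CPM. The samples are cultures of the LL2 line and of clones grown from its single cells. These values therefore describe RNA in the cultured lines and do not count cells of other types. The part of these marker differences in the results below was not tested.

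Under this rule, *Nfkbia* was the only one of the 10 genes called in any line against LL2 WT, and it was higher in the *KEAP1* KO clones. In *KEAP1* KO #1, 0 of the 10 genes were called (3 were at an unadjusted p under 0.05), against 8.54% of all genes tested, and 1 passed the test (background 23.2%). In *KEAP1* KO #2, 1 was called (background 13.7%) and 2 passed the test (background 31.9%). In *KEAP1* KO #3, 1 was called (background 13.4%) and 3 passed the test (background 31.4%). In *NRF2* KO, 0 were called (background 0.464%) and 0 passed the test (background 0.621%), with 2 at an unadjusted p under 0.05. The shares of the 10 genes that passed were therefore at or under the background in the *KEAP1* KO clones, and the 3 comparisons share the same LL2 WT samples. The median log2 fold change of the 10 genes was 0.20, −0.01, 0.37 and 0.01 in *KEAP1* KO #1, #2, #3 and *NRF2* KO, beside 0.11, 0.03, 0.02 and 0.04 over all genes tested. The value of 0.11 for all genes in *KEAP1* KO #1 became 0.01 when CPM were rescaled by the median ratio. A moderated F-test over the 5 lines was passed by 2 of the 10 genes, *Nfkbia* (adjusted p = 0.000316) and *Rela* (adjusted p = 0.00258), against 37.6% of all genes.

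**Figure D1:**
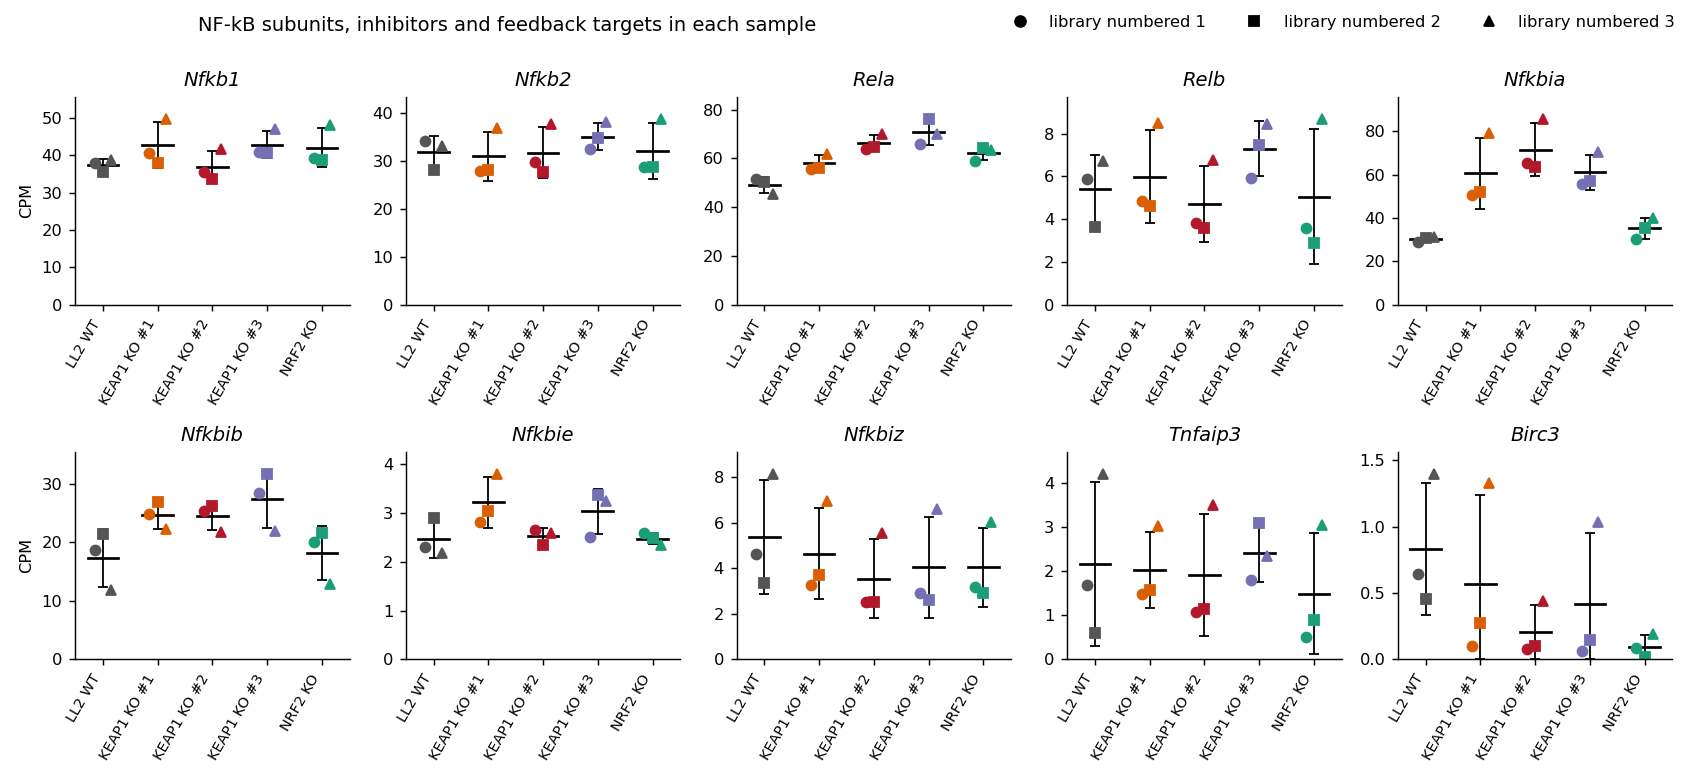
CPM of the 10 genes in each sample (vertical axes from 0, a separate scale for each gene) for the 5 lines. Points are samples, with circles, squares and triangles for the libraries numbered 1, 2 and 3, horizontal lines are means and bars the SD (n = 3), cut at 0. *Nfkbia* lies above 50 CPM in all 9 *KEAP1* KO samples and at or below 40.0 CPM in all LL2 WT and *NRF2* KO samples, and the triangles are the highest points in all 5 lines for *Nfkb1*, *Relb*, *Nfkbia*, *Nfkbiz* and *Birc3*.

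Among the inhibitors, *Nfkbia* encodes IkB-alpha, the classical cytoplasmic inhibitor that NF-kB itself induces. It lies on chromosome 12 from 55489410 to 55492647 (GRCm38, minus strand). The values of *Nfkbia* were 29.0, 30.5 and 31.03 CPM for LL2 WT and 30.3, 35.2 and 40.0 CPM for *NRF2* KO. They were 50.7, 51.9 and 79.5 CPM for *KEAP1* KO #1, 65.4, 63.7 and 85.8 CPM for #2 and 55.9, 56.9 and 70.5 CPM for #3. All 9 *KEAP1* KO samples were higher than every LL2 WT and *NRF2* KO sample, while the *NRF2* KO samples overlapped LL2 WT. The means stood in the order LL2 WT (30.2 ± 1.03 CPM), *NRF2* KO (35.2 ± 4.85 CPM), *KEAP1* KO #1 (60.7 ± 16.3 CPM), *KEAP1* KO #3 (61.1 ± 8.17 CPM) and *KEAP1* KO #2 (71.6 ± 12.29 CPM).

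The log2 fold change of *Nfkbia* against LL2 WT was 0.97 in *KEAP1* KO #1 (SE 0.18, adjusted p = 0.00181), 1.23 in *KEAP1* KO #2 (SE 0.18, adjusted p = 0.000205) and 1.01 in *KEAP1* KO #3 (SE 0.18, adjusted p = 0.000867), so the clones differed from LL2 WT by 1.96-fold, 2.35-fold and 2.01-fold. In *NRF2* KO it was 0.21 (adjusted p = 0.73, 95% interval −0.17 to 0.59). The test of the *KEAP1* KO clones together against *NRF2* KO gave 0.86 (SE 0.14, adjusted p = 0.000659), with an SE from the spread within lines and not between clones. The 3 clones were not told apart from each other, with differences of −0.22 to 0.26 and adjusted p from 0.424 to 0.938. The adjusted p stayed at or under 0.0197 in all 3 clones under every alternative setting, but the values in #1, which was not called, and #3, which was, lie close to the fold threshold. In *KEAP1* KO #3 the log2 fold change fell to 0.98 without LL2 WT replicate 1 and 0.90 without *KEAP1* KO #3 replicate 3, and in *KEAP1* KO #1 it reached 1.09 without *KEAP1* KO #1 replicate 1 and 1.07 without replicate 2.

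*Nfkbib* encodes IkB-beta, an inhibitor of the same class that is replaced more slowly after a stimulus, and lies on chromosome 7 from 28758251 to 28767512 (minus strand). The values of *Nfkbib* were 18.7, 21.5 and 11.9 CPM for LL2 WT and 20.1, 21.6 and 12.9 CPM for *NRF2* KO. In the clones it measured 24.8, 26.9 and 22.3 CPM (#1), 25.4, 26.2 and 21.8 CPM (#2), and 28.5, 31.7 and 22.0 CPM (#3). All 9 *KEAP1* KO samples again exceeded every LL2 WT sample and the library numbered 3 is the lowest of each line. The log2 fold change of *Nfkbib* against LL2 WT was 0.54 in #1 (SE 0.23, adjusted p = 0.107), 0.53 in #2 (SE 0.23, adjusted p = 0.0954) and 0.68 in #3 (SE 0.23, adjusted p = 0.0389), and 0.07 in *NRF2* KO (95% interval −0.42 to 0.57). The result in #3 no longer passed the test when LL2 WT replicate 1 (adjusted p = 0.0562) or 3 (0.156) or *KEAP1* KO #3 replicate 1 (0.106) or 2 (0.139) was left out. Conversely, without LL2 WT replicate 2 it passed in #1 (0.045) and #2 (0.0392) as well, and with a term for library number 3 in the model it passed in #1 (0.0034), #2 (0.0029) and #3 (0.000536). *Nfkbib* shares 13.4% of its 31-base stretches with *Ccer2*, a gene on the opposite strand that it overlaps, and reads of the pair could not be told apart if strand was ignored in counting, which the sources used here do not state.

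*Nfkbie*, which encodes IkB-epsilon and carries the kB match shown above, ranged from 2.18 to 3.80 CPM over the 15 samples. Its mean was 2.47 ± 0.384 CPM for LL2 WT and 3.22 ± 0.519, 2.52 ± 0.158, 3.04 ± 0.463 and 2.48 ± 0.120 CPM in *KEAP1* KO #1, #2, #3 and *NRF2* KO. Every line overlapped LL2 WT, and no difference of *Nfkbie* passed the test (log2 fold changes of 0.37, 0.04, 0.29 and 0.01, adjusted p from 0.16 to 0.989).

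*Nfkbiz* encodes IkB-zeta, a nuclear member of the inhibitor family that acts with NF-kB on secondary targets. The values of *Nfkbiz* were 4.64, 3.34 and 8.14 CPM for LL2 WT and 3.19, 2.90 and 6.03 CPM for *NRF2* KO. They were 3.26, 3.71 and 6.94 CPM for *KEAP1* KO #1, 2.54, 2.53 and 5.56 CPM for #2 and 2.90, 2.62 and 6.58 CPM for #3. Library 3 stood apart in each line, and every knockout line overlapped LL2 WT. The log2 fold changes against LL2 WT of −0.19, −0.59, −0.43 and −0.38 did not pass the test (SE 0.46 each, adjusted p from 0.354 to 0.822). With a term for library number 3 in the model, *Nfkbiz* passed it as lower in #2 (adjusted p = 0.00338) and #3 (0.0197), and at each library number #2, #3 and *NRF2* KO were below LL2 WT (ratios of 0.547 to 0.869).

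Among the subunits, *Rela* encodes the main transactivating subunit of the classical NF-kB dimer and lies on chromosome 19 from 5637483 to 5648130 (plus strand). The values of *Rela* were 51.6, 50.3 and 45.3 CPM for LL2 WT and 59.0, 64.2 and 63.3 CPM for *NRF2* KO. They were 55.6, 56.1 and 61.9 CPM for *KEAP1* KO #1, 63.9, 64.6 and 70.1 CPM for #2 and 65.9, 76.2 and 70.1 CPM for #3. All 12 knockout samples, those of *NRF2* KO included, lay above every LL2 WT sample. The means ran from LL2 WT (49.0 ± 3.34 CPM) through *KEAP1* KO #1 (57.9 ± 3.53 CPM), *NRF2* KO (62.2 ± 2.80 CPM) and *KEAP1* KO #2 (66.2 ± 3.36 CPM) to *KEAP1* KO #3 (70.7 ± 5.17 CPM), and the samples of neighbouring knockout lines overlap in this order.

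The log2 fold change of *Rela* against LL2 WT was 0.24 in *KEAP1* KO #1 (SE 0.086, adjusted p = 0.0612), 0.43 in #2 (SE 0.086, adjusted p = 0.00212), 0.53 in #3 (SE 0.086, adjusted p = 0.000512) and 0.34 in *NRF2* KO (SE 0.086, adjusted p = 0.126). The results in #2 and #3 passed the test, with fold changes of 1.35 and 1.44, and did so under every alternative setting. With a term for library number 3, *Rela* also passed in #1 (adjusted p = 0.0282) and *NRF2* KO (0.0387). The clones together did not differ detectably from *NRF2* KO (log2 difference 0.06, 95% interval −0.10 to 0.21, adjusted p = 0.607). Clone #3 exceeded clone #1 by 0.29 (adjusted p = 0.0449), and this passed the test in none of the 6 fits that left out a library of either clone (adjusted p from 0.0508 to 0.182).

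*Nfkb1* and *Nfkb2* encode the precursors that are processed into the DNA-binding partner subunits of the classical and the alternative pathway. *Nfkb1* ranged from 33.7 to 49.8 CPM, with means of 37.4 ± 1.62 CPM for LL2 WT, 42.8 ± 6.22, 37.0 ± 4.18 and 42.9 ± 3.71 CPM for the clones #1, #2 and #3, and 42.1 ± 5.26 CPM for *NRF2* KO. The 3 samples of *KEAP1* KO #3 and of *NRF2* KO lay above every LL2 WT sample, yet no *Nfkb1* difference passed the test (log2 fold changes of −0.02 to 0.19, adjusted p from 0.264 to 0.909). With a term for library number 3, *Nfkb1* passed in #1 (0.0489) and #3 (0.0343). *Nfkb2* ranged from 27.7 to 38.8 CPM and overlapped LL2 WT in all 4 knockout lines, with log2 fold changes of −0.05, −0.01, 0.14 and 0.00 (adjusted p from 0.533 to 1). The 95% intervals of these *Nfkb2* differences lie within −0.39 and 0.49, and 10.6% of its 31-base stretches are shared with the noncoding gene *AC114539.1*, which overlaps it on the other strand.

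*Relb* encodes the transactivating partner in the alternative pathway. The values of *Relb* were 5.86, 3.61 and 6.72 CPM for LL2 WT and 3.60, 2.87 and 8.69 CPM for *NRF2* KO. They were 4.84, 4.62 and 8.49 CPM for *KEAP1* KO #1, 3.81, 3.58 and 6.76 CPM for #2 and 5.93, 7.47 and 8.47 CPM for #3. Every line overlapped LL2 WT, with library 3 highest each time. The log2 fold changes of *Relb* were 0.14, −0.20, 0.46 and −0.21 (SE 0.40 each, adjusted p from 0.41 to 0.889), and the 95% interval in *KEAP1* KO #3 runs from −0.40 to 1.32.

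*Tnfaip3*, a feedback target, encodes a ubiquitin-editing enzyme that shuts off signaling upstream of IKK. The values of *Tnfaip3* were 1.69, 0.598 and 4.21 CPM for LL2 WT and 0.514, 0.900 and 3.06 CPM for *NRF2* KO. They were 1.49, 1.58 and 3.03 CPM for *KEAP1* KO #1, 1.07, 1.16 and 3.51 CPM for #2 and 1.80, 3.11 and 2.34 CPM for #3. The LL2 WT values span the values of all 3 *KEAP1* KO clones. For *Tnfaip3*, log2 fold changes were 0.21, −0.01, 0.49 and −0.49 (SE 0.69 each, adjusted p from 0.627 to 0.996), and a change of 2-fold in either direction lies within the 95% interval of each.

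*Birc3* encodes an inhibitor of apoptosis that also ubiquitinates components of TNF receptor complexes. The values of *Birc3* were 0.645, 0.451 and 1.40 CPM for LL2 WT and 0.0844, 0.0184 and 0.189 CPM for *NRF2* KO. They were 0.0979, 0.275 and 1.33 CPM for *KEAP1* KO #1, 0.0794, 0.101 and 0.441 CPM for #2 and 0.0613, 0.143 and 1.04 CPM for #3. The samples of *KEAP1* KO #2 and *NRF2* KO were all below LL2 WT, and those of #1 and #3 overlapped it through their library 3. The log2 fold change of *Birc3* was −0.84, −1.66, −1.26 and −2.20 in the order #1, #2, #3 and *NRF2* KO (SE 0.83 each, adjusted p of 0.498, 0.145, 0.269 and 0.334), and none passed the test. With the library number 3 as a term in the model, it was called lower in *KEAP1* KO #2 (adjusted p = 0.00673), #3 (0.0284) and *NRF2* KO (0.0192), and not in #1 (0.137). Many of these values are close to the added 0.1 CPM, so the fold changes depend on it, and 11.6% of the 31-base stretches of *Birc3* occur in other genes.

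**Figure D2:**
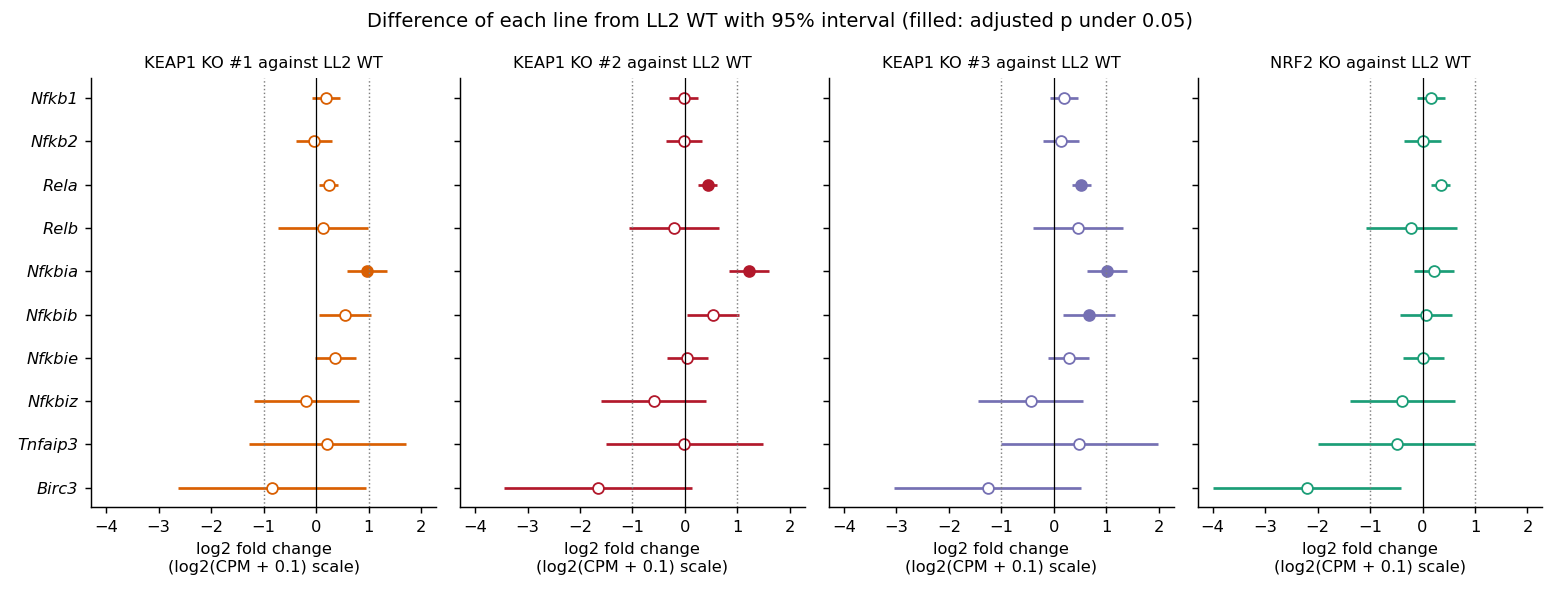
Log2 fold change of the 10 genes in each knockout line against LL2 WT (horizontal axis, on the log2(CPM + 0.1) scale). Points are limma estimates, bars are 95% intervals, filled points have an adjusted p under 0.05 and dotted lines mark −1 and 1. *Nfkbia* is filled in the 3 *KEAP1* KO panels, *Rela* in #2 and #3 and *Nfkbib* in #3, no point is filled for *NRF2* KO, and the intervals of *Relb*, *Nfkbiz*, *Tnfaip3* and *Birc3* are the widest.

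The *KEAP1* KO clones were also compared with each other and as a group. In the group tests the SE comes from the spread within lines, so the spread between clones does not enter it, and *NRF2* KO is 1 clone. Between #2 and #1, 0 of the 10 genes were called (background 4.58%) and 0 passed the test (background 11.1%), with 1 at an unadjusted p under 0.05. Between #3 and #1, 0 were called (background 4.63%) and 1 passed the test, *Rela* (background 12.25%). Between #3 and #2, 0 were called (background 0.485%) and 0 passed the test (background 0.764%), with 0 at an unadjusted p under 0.05. The clones together differed from LL2 WT in 1 called gene, *Nfkbia* at 1.07 (SE 0.14, adjusted p = 0.000102, background 12.7%), and 3 genes passed the test (background 37.4%), namely *Nfkbia*, *Rela* at 0.40 (adjusted p = 0.000741) and *Nfkbib* at 0.58 (adjusted p = 0.0269). Without *KEAP1* KO #1 replicate 3 the value of *Nfkbia* was 1.00 and not called, and without LL2 WT replicate 3 *Nfkbib* was 0.34 (adjusted p = 0.19). Against *NRF2* KO, 0 genes were called (background 9.94%) and 1 passed the test, *Nfkbia* (background 25.9%).

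The members varied with the library number as well as with the line. The labels give no batch, day or passage for the number, and this comparison was chosen after the values were seen. In a limma model with the line and a term for the libraries numbered 3, 8 of the 10 genes passed the test (background 45.7%). Of these, 7 were higher and 1 lower in those libraries, beside 30.6% and 15.1% of all genes, and 3 were called (background 4.31%). The median log2 difference was 0.32 over the 10 genes and 0.13 over all genes tested. *Birc3* was 3.3-fold higher (log2 1.72, adjusted p = 0.000643), *Tnfaip3* 2.45-fold (log2 1.29, adjusted p = 0.00406) and *Nfkbiz* 2.08-fold (log2 1.06, adjusted p = 5.63e-05). *Relb* (log2 0.79), *Nfkbia* (0.34), *Nfkb2* (0.30) and *Nfkb1* (0.24) were higher by less, *Nfkbib* was lower (log2 −0.47, adjusted p = 0.000748), and *Rela* (0.03) and *Nfkbie* (0.05) did not pass the test. Against LL2 WT, 4, 5, 6 and 2 of the 10 genes passed the test in *KEAP1* KO #1, #2, #3 and *NRF2* KO in this model, beside 40.8%, 48.1%, 47.4% and 3.04% of all genes. Library 3 was the highest in 5 of 5 lines for *Nfkb1*, *Relb*, *Nfkbia*, *Nfkbiz* and *Birc3*, in 4 of 5 for *Nfkb2* and *Tnfaip3*, and the lowest in 5 of 5 for *Nfkbib*. The share of all genes with such an order was not counted.

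Immediate-early genes, which respond to serum and handling within minutes, moved with the same libraries. *Egr1* (log2 3.04), *Fos* (3.06), *Fosb* (2.00), *Jun* (0.75), *Atf3* (0.72) and *Ier2* (0.37) passed the test as higher in the libraries numbered 3, and *Junb* (0.45, adjusted p = 0.0635) did not. The sum of these 7 genes was 540 CPM in LL2 WT replicate 3 and 106 to 186 CPM in the other 14 samples. Their part in the values of the NF-kB genes was not tested. Within the libraries numbered 3 alone, the *Nfkbia* ratio of *KEAP1* KO to LL2 WT was 2.56, 2.76 and 2.27 for #1, #2 and #3, and within those numbered 1 it was 1.74, 2.25 and 1.92. Within those numbered 2 the ratios were 1.70, 2.09 and 1.86, so *Nfkbia* was higher in every clone at each library number. For *Rela* the same ratios lay between 1.08 and 1.55, and for *Nfkbib* between 1.22 and 1.87.

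**Figure D3:**
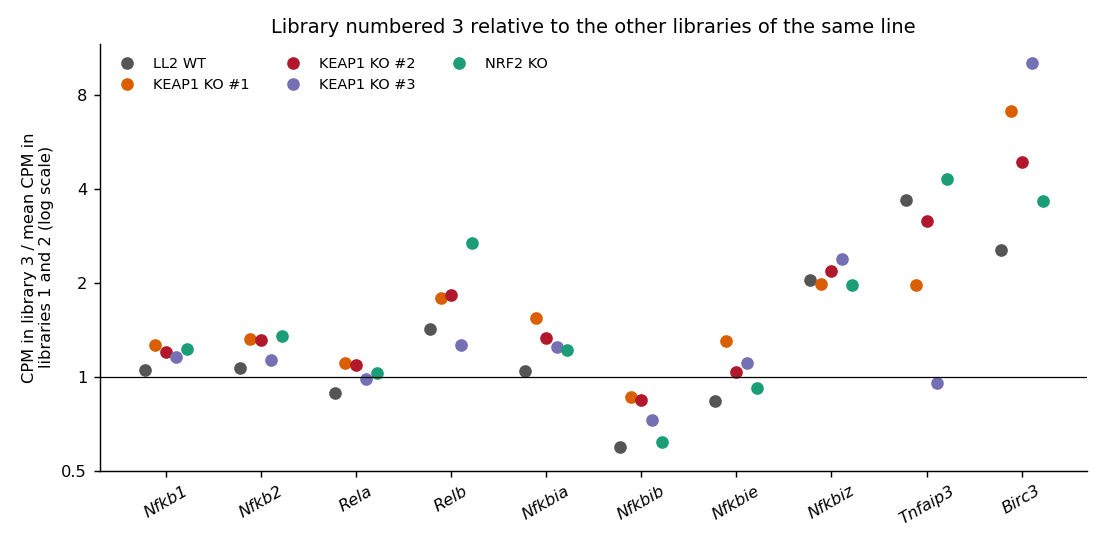
CPM in the library numbered 3 divided by the mean of those numbered 1 and 2, for each gene and line (vertical axis, log scale, 1 marks equality). Each point is 1 line. All 5 points of *Nfkbiz* lie between 1.98 and 2.39 and those of *Birc3* between 2.55 and 10.15, while those of *Nfkbib* lie between 0.594 and 0.862.

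Correlations between the genes describe the same structure. They are Pearson r of log2(CPM + 0.1) over 15 samples that share lines and library numbers, and carry no test. Over the deviations from the line means, *Nfkb2* and *Relb* had r = 0.96, *Nfkb1* and *Nfkb2* 0.95, *Nfkbiz* and *Birc3* 0.93 and *Nfkb1* and *Nfkbia* 0.90, whereas *Nfkbiz* and *Nfkbib* had −0.88. Over the 15 samples themselves, where the lines also enter, *Nfkb1* and *Nfkbia* had 0.32, *Nfkbiz* and *Nfkbia* 0.04, and *Rela* and *Nfkbia* 0.69. Among 11675 other genes averaging 1 CPM or more, the gene most alike over the 15 samples was *Zmiz2* for *Nfkbia* (r = 0.97), *Bak1* for *Nfkbib* (0.98), *Kctd18* for *Nfkbiz* (0.96), *Bbs12* for *Nfkb2* (0.94), *Shprh* for *Rela* (0.93), *Odf2l* for *Relb* (0.93), *Zdhhc9* for *Tnfaip3* (0.92), *Rnf123* for *Nfkb1* (0.90) and *Saa3* for *Nfkbie* (0.81). For *Birc3* it was *Spa17* (0.88).

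**Figure D4:**
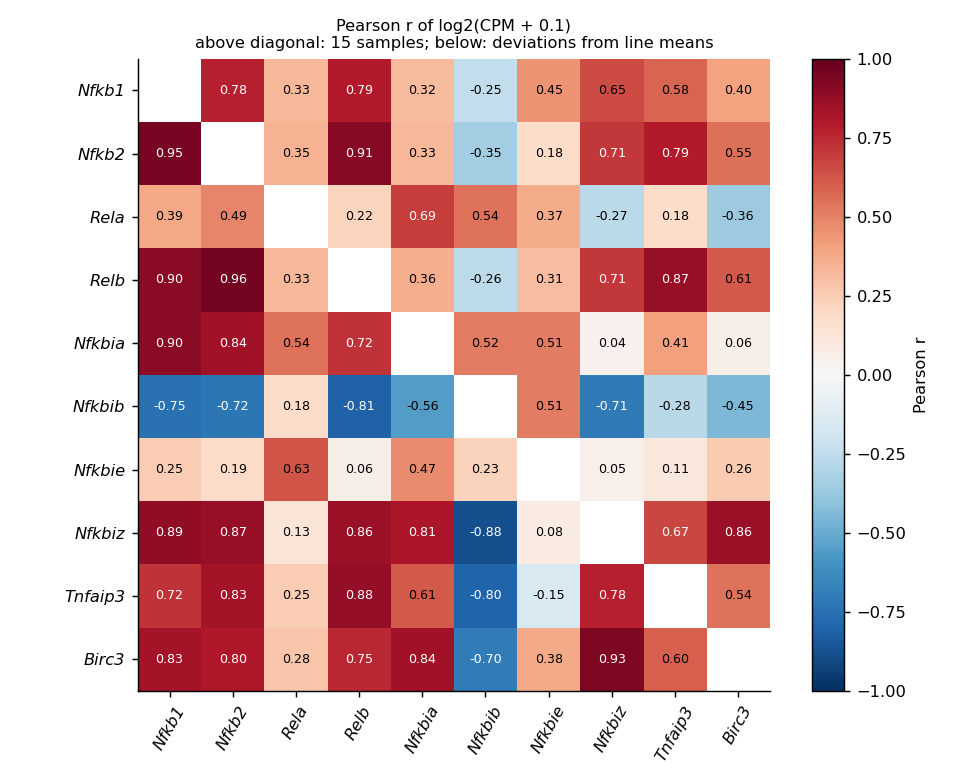
Pearson r between the 10 genes on log2(CPM + 0.1), over the 15 samples above the diagonal and over deviations from the line means below it. Color and printed value give r. Below the diagonal, *Nfkb1*, *Nfkb2*, *Relb*, *Nfkbia*, *Nfkbiz*, *Tnfaip3* and *Birc3* have positive r with each other and negative r with *Nfkbib*.

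The other genes of the pathway were read from lists by role, 70 genes in the table of which 60 passed the filter. These lists were chosen with earlier results of these data known, and some called genes passed the filter only through the *KEAP1* KO samples. The shares below therefore describe the lists and carry no test of them. In *KEAP1* KO #1, 12 of the 60 were called (8 higher, 4 lower, 20%), in #2 13 (5 higher, 8 lower, 21.7%) and in #3 14 (8 higher, 6 lower, 23.3%), beside the backgrounds of 8.54%, 13.7% and 13.4%. Their median log2 fold changes were 0.25, 0.20 and 0.27. In *NRF2* KO 1 was called, *Otulin*, which removes linear ubiquitin chains, at 1.00 (adjusted p = 0.0485), and it was lost without any 1 of 5 libraries (LL2 WT replicates 1 and 3 and all 3 of *NRF2* KO), down to 0.72. Of the 60 genes, 4 were called higher in all 3 clones (6.67%, against 2.86% of all genes tested) and 3 lower in all 3 (5%, against 2.63%), and the clones share the LL2 WT samples in these counts.

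Among the 10 IKK subunits and upstream kinases, 1 was called in each clone, and 3, 5 and 5 passed the test in #1, #2 and #3, all higher (30%, 50% and 50%, against backgrounds of 23.2%, 31.9% and 31.4%). *Ikbkg*, the regulatory subunit of IKK, measured 16.7, 15.8 and 16.7 CPM in LL2 WT and 97.2 to 142 CPM in the 9 *KEAP1* KO samples, and 14.3 to 18.6 CPM in *NRF2* KO. Its log2 fold changes were 2.91, 2.64 and 3.09 (adjusted p = 7.65e-10, 2.19e-09 and 3.45e-10) and −0.03 in *NRF2* KO. *Ikbkg* overlaps *G6pdx*, an enzyme gene of the pentose phosphate pathway on the opposite strand, over 19712 bases and shares 4.4% of its 31-base stretches with it, so reads of *G6pdx* may be counted for it. *G6pdx* spanned 61.9 to 84.2 CPM over LL2 WT, 140 to 255 CPM over the clones and 51.4 to 53.0 CPM over *NRF2* KO. Its log2 fold changes were 1.02, 1.57 and 1.34 in the clones. The part of *G6pdx* reads in the *Ikbkg* values was not tested. The catalytic subunits *Chuk* and *Ikbkb* were not called in any line, and *Chuk* passed the test in #2 (0.40, adjusted p = 0.0125) and #3 (0.37, adjusted p = 0.0193).

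Of the 11 adaptors, *Traf1*, itself an NF-kB target, rose from 0.0993 to 0.194 CPM in LL2 WT to 0.850 to 4.11 CPM in the 9 *KEAP1* KO samples (log2 fold changes 2.77, 3.44 and 3.98). Its LL2 WT values are near the added 0.1 CPM, and with 1 CPM added the log2 fold changes of *Traf1* were 1.23, 1.64 and 2.06, still called. *Traf1* passed the filter only through the *KEAP1* KO samples. *Traf3*, which restrains the alternative pathway, was called higher in #3 (1.1) but not without LL2 WT replicate 3 (0.90), and *Traf5* was called lower in #2 (−1.61) and #3 (−1.54). Of the 9 ubiquitin chain enzymes and editors, 0 were called in the clones, with 1, 1 and 2 past the test in #1, #2 and #3 (11.1%, 11.1% and 22.2%, against backgrounds of 23.2%, 31.9% and 31.4%). Of the 2 tested further family members, *Rel*, the remaining NF-kB subunit, passed the test in the 3 clones without being called (0.75, 0.66 and 0.82), and *Bcl3* did not.

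The 10 receptors were mostly called lower where they were called. *Tnfrsf11a*, the receptor of RANKL, fell from 2.12 to 2.67 CPM in LL2 WT to 0.114 to 0.571 CPM in the *KEAP1* KO samples (log2 −2.98, −3.07 and −2.65, and −1.46 in #1 and −1.37 in #3 with 1 CPM added, called in all 3). It measured 1.16 to 2.19 CPM in *NRF2* KO. *Tnfrsf11a* passed the filter only through the LL2 WT and *NRF2* KO samples, and could enter the tests only by being high there. *Il1r1* was called lower in #2 and #3 (−1.05 and −1.19), *Tlr2* in #1 and #2 (−1.20 and −1.07) and *Tlr3* in #2 (−1.28), while *Cd40* was called higher in #1 (1.37). Each of these 4 receptors lost a call in some fit without 1 library. *Cd40* was lost without *KEAP1* KO #1 replicate 2 or 3, *Il1r1* without LL2 WT replicate 3 in both clones and, in #2, without #2 replicate 2, and *Tlr2* without #1 replicate 2 in #1. *Tlr2* in #2 was lost without LL2 WT replicate 1 or 2 or #2 replicate 1 or 2, and *Tlr3* without LL2 WT replicate 2 or #2 replicate 1. The direction of *Tlr3* differed between clones. Its samples of #1 lay above every LL2 WT sample (3.61 to 4.61 against 1.41 to 2.61 CPM) and those of #3 below, neither being called. With 1 or 0.5 CPM added, *Cd40*, *Tlr2* and *Tlr3* were not called, and *Cd40* passed the filter only through the *KEAP1* KO samples. Of 7 ligands, 6 were removed by the filter, *Tnf*, *Lta*, *Ltb*, *Il1a*, *Il1b* and *Tnfsf11*, and *Tnfsf12* was called lower in #2 (−1.24) and #3 (−1.32).

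Of the 17 tested further target genes, 7, 5 and 7 were called in #1, #2 and #3 (41.2%, 29.4% and 41.2%, against backgrounds of 8.54%, 13.7% and 13.4%), and 0 in *NRF2* KO. This list was chosen with earlier results known and includes genes that the paper reports as changed in these lines, among them *Ptgs2*, *Cxcl1* and *Cxcl5*. These shares therefore carry no test of the list. *Ptgs2*, the inducible cyclooxygenase, measured 16.4, 21.2 and 58.9 CPM in LL2 WT, 124 to 260 CPM in the *KEAP1* KO samples and 8.05 to 13.1 CPM in *NRF2* KO, with log2 fold changes of 2.55, 2.98 and 3.08 in the clones. *Ccl20*, a chemokine gene, was at 0.114, 0 and 0 CPM for LL2 WT, at 0.742 to 2.94 CPM for the 9 *KEAP1* KO samples, and was called higher in each clone, with a fold that depends on the added 0.1 CPM. With 1 CPM added, *Ccl20* was no longer called in #2 (0.92). *Ccl20*, *Cxcl2*, *Cxcl5*, *Cxcl10* and *Mmp9* passed the filter only through the *KEAP1* KO samples, and could enter the tests only by being high there. *Vcam1*, an adhesion molecule that leukocytes bind, fell from 97.98 to 154 CPM to 5.95 to 47.0 CPM (log2 −1.75, −3.59 and −3.94), and *Plau*, a secreted protease of matrix turnover, from 88.2 to 361 CPM to 17.9 to 33.2 CPM (−2.94, −2.90 and −2.46). In *NRF2* KO, where neither was called, *Vcam1* measured 57.4 to 97.49 CPM, with all 3 samples below LL2 WT. *Plau* measured 50.6 to 194 CPM there and overlapped LL2 WT. The remaining genes were called in only some of the clones, which is no test of a difference between clones. *Cxcl2*, *Cxcl10* and *Gadd45b* were called higher in #1 (2.06, 2.54 and 1.74), *Mmp9* in #2 and #3 (2.48 and 2.93, with #2 not called at 0.85 when 1 CPM was added), and *Cxcl1* and *Cxcl5* in #3 (2.40 and 2.59). *Cxcl1* measured 5.66, 3.78 and 18.3 CPM in LL2 WT. Without being called, it measured 14.6, 17.1 and 38.4 CPM in #1 and 15.4, 15.4 and 42.6 CPM in #2, higher at each library number. With 1 CPM added, *Cxcl10* was at 1.29 in #1 and *Cxcl5* at 1.35 in #3, both still called. *Cxcl2* was lost without LL2 WT replicate 2 or 3, with each other pseudocount, without the filter and under both rescalings (8 of 11 alternatives), and *Cxcl1* without LL2 WT replicate 1 or 2 or #3 replicate 3. *Sod2*, the mitochondrial superoxide dismutase, passed the test in all 3 clones without being called (0.67, 0.82 and 0.94). Genes used as markers of other cell types differ between the same lines, as given above, and their part in these values was not tested.

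**Figure D5:**
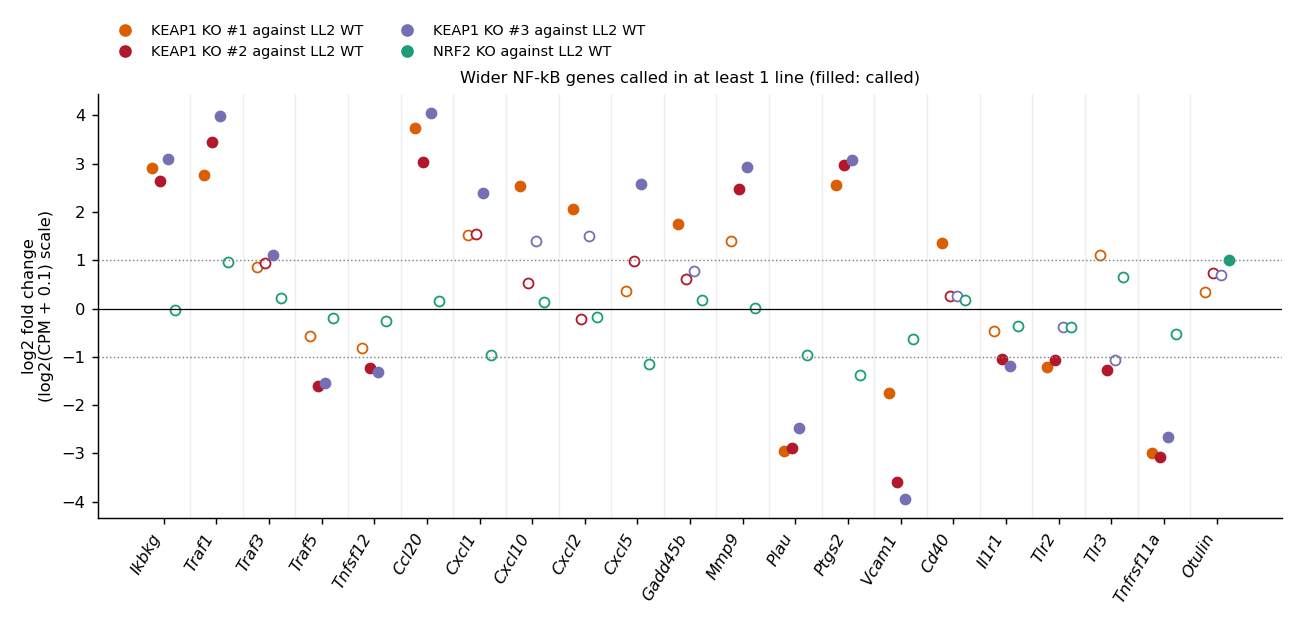
Log2 fold change against LL2 WT (vertical axis, on the log2(CPM + 0.1) scale) of the 21 further pathway genes called in at least 1 of the 4 knockout lines. Each point is 1 line, filled where called, and dotted lines mark −1 and 1. *Ikbkg*, *Traf1*, *Ccl20* and *Ptgs2* are filled above 2 in all 3 *KEAP1* KO clones and *Plau*, *Vcam1* and *Tnfrsf11a* below −1, and the only filled point of *NRF2* KO is *Otulin*.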

How the data were processed

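The table that the authors deposited holds gene-level CPM. According to the methods, Kallisto aligned the reads to mouse cDNA of GRCm38.p6, while the submitters' processing notes name GRCm39. Because the CPM are fractional and already scaled, neither read counts nor depths can be had from them, no counting interval is given, and how strand was treated is not given in the sources used here. The 15 samples were grouped by the genotype in the labels, 0 columns belonged to other samples, and 1 entry without a gene symbol (0.0214% to 0.0491% of the CPM) was left out.

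Genes summing to 3 CPM or more were kept (14652 of 35880) and tested as log2(CPM + 0.1) with limma 3.58.1 (R 4.3.3), with a mean per line, contrasts and empirical Bayes with a trend, and Benjamini-Hochberg adjustment over all genes tested. The procedure was tested on simulated data with independent noise in each sample. These data hold no shared effect of the library number, so that case was not checked. All 10 genes are named with their values, and of the other pathway genes those called in any comparison against LL2 WT, besides *Rel*, *Bcl3*, *Chuk*, *Ikbkb*, *Sod2*, *G6pdx* and the ligands removed by the filter, which were named after their values were seen. The genes and lists were chosen with earlier results of these data known. Alternatives were pseudocounts of 1, 0.5 and 0.01 CPM, no filter, a mean of at least 1 CPM, median-ratio and quantile rescaling, no trend, only the lines compared, a replicate block, library 3 as a batch and leaving out each library. Using libraries 1 and 2 only was added after seeing the data. Gene positions and shared 31-base stretches come from the GENCODE M21 annotation of GRCm38, promoters from RefSeq. Python 3.11.15, pandas 2.3.3 and matplotlib 3.10.9 were used.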

Additional observations from a re-analysis of the deposited data

Results flagged for a closer look

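A pair of differences between lines was picked out because the lines' responses differed in a direct test. The spread between clones does not enter these tests. *Nfkbia* in the *KEAP1* KO clones together was 0.86 above *NRF2* KO on the log2 scale (limma adjusted p = 0.000659), higher in 9 of 9 *KEAP1* KO samples than in every *NRF2* KO sample, and the adjusted p stayed at or under 0.00803 over all alternatives. *Rela* in *KEAP1* KO #3 was 0.29 above *KEAP1* KO #1 (limma adjusted p = 0.0449), with all 3 samples of #3 above those of #1, and the adjusted p ranged from 0.00792 to 0.182 over the alternatives.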

How the results depend on the processing

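Of 753 recomputed fold changes of the 10 genes, 666 kept their direction and their side of the threshold, 17 no longer passed the test, 27 newly passed it and 43, none of which passed the test, changed sign. The number of called genes against LL2 WT moved in *KEAP1* KO #3 from 1 to 0 with a pseudocount of 1 or 0.5 CPM, median-ratio rescaling, quantile normalization or libraries 1 and 2 only, and in the clones together from 1 to 0 with libraries 1 and 2 only. These changes come from *Nfkbia* passing under a log2 fold change of 1. Leaving out 1 library gave counts of 0 to 1 in *KEAP1* KO #1, #3 and the clones together, and 1 to 2 genes past the test in #1. With libraries 1 and 2 only, 2 genes passed in #1, 4 in #2 and 4 in the F-test, and *Birc3* fell under the filter. For the other pathway genes, a mean of at least 1 CPM left 7 calls in #1. In *NRF2* KO the count was 0 with any other pseudocount, no filter, a mean of at least 1 CPM, either rescaling, no trend, only the lines compared or libraries 1 and 2 only, and 0 to 1 without 1 library. Of the 40 calls of other pathway genes, 30 were kept without any 1 library and 28 under all alternatives. The shares of all genes called or past the test under the settings of this paragraph were not counted. These counts therefore have no background beside them and describe only how the main counts moved.

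The replicate numbers are shared across lines, but samples with the same number deviated together only in part. The median r was 0.276 over 30 pairs (range −0.0221 to 0.631), against −0.192 over 60 pairs of different numbers, and 22 of 30 exceeded 0.1. With a replicate block, *Birc3* was called besides *Nfkbia* in *KEAP1* KO #2, #3 and the clones together (2 genes each, backgrounds in that fit 15.6%, 15.5% and 13.7%) and alone in *NRF2* KO (1 gene, background 1.22%). In #1, #2, #3 and *NRF2* KO 4, 5, 6 and 2 genes passed the test (backgrounds 40.8%, 48.1%, 47.2% and 3.32%) and 6 in the F-test (background 59.8%). Those gained were *Nfkb1*, *Nfkbib* and *Rela* in #1, *Birc3*, *Nfkbib* and *Nfkbiz* in #2, *Birc3*, *Nfkb1* and *Nfkbiz* in #3, *Birc3* and *Rela* in *NRF2* KO and *Birc3*, *Nfkb1*, *Nfkbib* and *Nfkbiz* in the F-test. Of the other pathway genes, 2 were called in *NRF2* KO. Library 3 as a batch gave the same counts in these comparisons. Between the clones together and *NRF2* KO, *Nfkbia* and *Nfkbib* passed the test with the block (2 genes, background 40.9%). With library 3 as a batch *Birc3* passed as well (3 genes, background 40.8%). Between #2 and #1, *Nfkb1* passed in both fits (1 gene, backgrounds 23.7% and 23.2%).

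Sign changes outside the fits without 1 library were all small. *Tnfaip3* in *KEAP1* KO #2 was 0.01 with a pseudocount of 0.01 CPM, 0.18 with quantile normalization and 0.12 with libraries 1 and 2 only. *Nfkbie* was −0.06 in #2 and −0.03 in *NRF2* KO with libraries 1 and 2 only, and −0.03 in *NRF2* KO after median-ratio rescaling. *Nfkb2* in *NRF2* KO was 0.0002 and 0.0001 with pseudocounts of 1 and 0.5 CPM. Without 1 library, *Nfkb2* lay between −0.18 and 0.02 in #1, −0.15 and 0.08 in #2 and −0.14 and 0.07 in *NRF2* KO, *Relb* between −0.14 and 0.32 in #1 and −0.68 and 0.10 in *NRF2* KO, and *Nfkbiz* between −0.52 and 0.15 in #1. *Tnfaip3* lay between −0.45 and 0.86 in #1, −0.67 and 0.64 in #2, −0.18 and 1.14 in #3 and −1.16 and 0.16 in *NRF2* KO. *Nfkb1* lay between −0.11 and 0.04 in #2, *Nfkbib* between −0.17 and 0.30 in *NRF2* KO, and *Nfkbie* between −0.04 and 0.16 in #2 and −0.06 and 0.13 in *NRF2* KO. Without read counts, how far depth limits the low genes *Birc3*, *Tnfaip3* and *Nfkbie* is unknown.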
